A study of Mus musculus with 2 samples.

Results

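The miRNAs described are mmu-miR-26a-5p and mmu-miR-26b-5p (miR-26a-5p and miR-26b-5p from here on), 2 of the 1881 mouse miRNAs on the array, with 4 of its 4415 probes. They were chosen by name as paralogs, with their OVX minus sham differences, 0.06 for mmu-miR-26a-5p and 1.04 for mmu-miR-26b-5p on a scaled log2 scale, already known. The levels and differences below are therefore descriptions and carry no test. The samples were whole femurs, marrow and bone together, of wild-type (wt) female mice on a C57BL/6 background, aged 9 months, either ovariectomised (OVX, ovaries removed, which ends most estrogen production) or sham-operated. Each group was 1 RNA sample pooled from 4 mice and hybridised to 1 single-colour Agilent array, so no difference has a replicate check, and variation between mice cannot be seen. As the RNA comes from bulk tissue, fewer cells of a type and less of a miRNA per cell cannot be told apart.

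MicroRNAs are short RNAs that guide the silencing complex to messenger RNAs, mainly through the seed near the 5′ end, and lower their translation and stability. The miR-26 family is found in most tissues. It restrains Ezh2, a histone methyltransferase, and Gsk3b, a kinase that holds back Wnt signalling, and in bone it has been studied in osteoblast differentiation, with promotion reported in marrow stromal cells and inhibition in fat-derived ones. Its genes lie inside genes of the small CTD phosphatases, which act with RB to hold cells before DNA synthesis. In the RefSeq table (GRCm38.p6, used for names), Mir26a-1 lies within Ctdspl, Mir26a-2 within Ctdsp2 and Mir26b within Ctdsp1. On the files' build, mm9, the longest miR-26b-5p probe matches chr1:74440900-74440918 (19 positions for a probe of 20 bases, as the files list it), and the longest miR-26a-5p probe matches both chr9:118940935-118940950 and chr10:126432605-126432620.

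The mature sequences (RefSeq, GRCm38.p6) are shown with the seed, bases 2 to 8, in capitals, because the seed is identical and the members differ only outside it, in the middle and at the 3′ end. No other mature mouse miRNA in the part of that table searched has this seed. The search left out the entries of a chromosome.
miR-26a-5p: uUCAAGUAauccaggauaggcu
miR-26b-5p: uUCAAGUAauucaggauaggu
Counted from 1 at the 5′ end and aligned without a gap, miR-26b-5p differs from miR-26a-5p by C11U and C21U, and it is 1 base shorter. They are identical at 19 positions.

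The hairpins, shown with the 5′ arm in capitals, are shown for what the array can resolve. Mir26a-1 and Mir26a-2 give the same mature 5′ arm, so a miR-26a-5p signal does not separate the loci on chromosomes 9 and 10.
Mir26a-1: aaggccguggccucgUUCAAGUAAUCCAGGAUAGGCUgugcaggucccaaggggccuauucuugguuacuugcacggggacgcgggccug
Mir26a-2: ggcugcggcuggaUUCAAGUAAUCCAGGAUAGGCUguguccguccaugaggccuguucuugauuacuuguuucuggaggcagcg
Mir26b: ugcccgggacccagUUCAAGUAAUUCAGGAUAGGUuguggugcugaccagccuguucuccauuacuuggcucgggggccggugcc

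Each member had 2 probes. The probe sequences are shown, as the scanner files give them, because all 4 span the bases at which the miRNAs differ. Capitals mark the probe bases opposite those positions.
A_54_P2481: AGcctatcctgGatt
A_54_P4384: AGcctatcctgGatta
A_54_P2483: AcctatcctgAattacttg
A_54_P2484: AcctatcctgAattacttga
A_54_P2481 and A_54_P4384, of 15 and 16 bases, target miR-26a-5p from base 8 or 7 to its end. A_54_P2483 and A_54_P2484, of 19 and 20 bases, target miR-26b-5p from base 3 or 2 to its end. Aligned to the other paralog without a gap, the miR-26b-5p probes would pair at 17 and 18 bases with 2 mismatches. The miR-26a-5p probes would in the same way pair at 12 and 13 bases, with 2 mismatches and 1 base without a partner. Pairing with a gap near the 3′ end of the miRNA, which could join more bases, was not counted. How far a probe picks up the other paralog was not tested. The miR-26a-5p probes hold 46.7% and 43.8% G or C, and the miR-26b-5p probes 36.8% and 35.0%.

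All probes of both members were well above background on both arrays, meaning that over 50% of a probe's spots passed the scanner software's call. The signals below are mean processed intensities, the spot brightness after background subtraction and before any scaling between arrays, with the SD between spots of the array. Negative control spots averaged 1.93 in sham and 1.36 in OVX. The 15-base miR-26a-5p probe was at 146.7 ± 15.6 (SD, n = 14 spots, from 118.4 to 176.1) in sham and 285.2 ± 39.5 (n = 15, from 205.2 to 334.5) in OVX, a ratio of 1.94. The 16-base probe was at 239.8 ± 53.7 (n = 15, from 141.5 to 298.2) in sham and 548.1 ± 31.5 (n = 13, from 475.6 to 594.6) in OVX, a ratio of 2.29. Both miR-26a-5p probes were thus brighter on the OVX array, by about as much as that whole array was: at the 75th percentile of the 350 probes well above background on both, it was brighter by a factor of 2.02.

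The miR-26b-5p probes rose by more. The 19-base probe was at 36.4 ± 9.59 (SD, n = 15 spots, from 16.0 to 48.3) in sham and 160.6 ± 14.6 (n = 14, from 136.0 to 181.6) in OVX, a ratio of 4.41. The 20-base probe was at 67.0 ± 6.92 (n = 14, from 54.8 to 80.3) in sham and 260.8 ± 16.2 (n = 15, from 229.2 to 280.1) in OVX, a ratio of 3.89. No OVX spot of any of the 4 probes was as dim as the brightest sham spot of the same probe. The spread between spots is technical and holds no variation between mice.

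**Figure D1:**
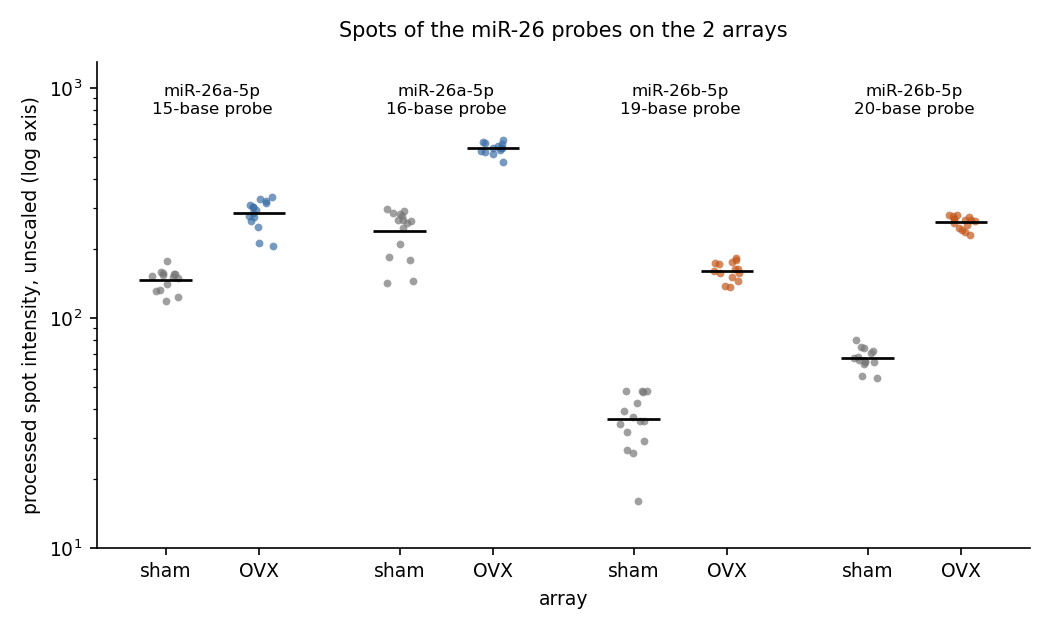
Processed intensity (log axis, unscaled) of every spot without an outlier flag for the 4 miR-26 probes on the sham (grey) and OVX (coloured) arrays; black bars are means. The step from sham to OVX is 1.94 and 2.29 times for the miR-26a-5p probes and 4.41 and 3.89 times for the miR-26b-5p probes.

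To set the arrays beside each other, signals were converted to log2 and each array's 75th percentile over those 350 probes was subtracted; a level is the mean over a miRNA's probes, and its spot SE is propagated from the spread between spots. miR-26a-5p had a level of 0.54 (spot SE 0.05) in the sham pool and 0.60 (spot SE 0.03) in the OVX pool. The difference, always OVX minus sham, was 0.06 (spot SE 0.05), which is 1.04-fold. Its probes lay on either side of 0, at -0.05 and 0.18. miR-26b-5p had a level of -1.39 (spot SE 0.05) in the sham pool and -0.35 (spot SE 0.02) in the OVX pool. Its difference was 1.04 (spot SE 0.06), which is 2.05-fold, and its probes were at 1.13 and 0.95. After scaling, all 14 and 15 OVX spots of the miR-26b-5p probes still lay above every sham spot, and no OVX spot of the miR-26a-5p probes did. Levels of different probes depend on the probe, so these values do not say which paralog was more abundant.

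Of the 197 miRNAs present on both arrays, 4 (2.03%) had a level in OVX at least 2 times that in sham. miR-26b-5p was one of them, at rank 4 from the highest difference. It was itself the miRNA just inside that limit (1.04), and the one just outside was miR-144-5p (0.97). miR-26a-5p was at rank 85, near the median of all 197 (-0.04; quartiles -0.36 and 0.28). Whether miR-26b-5p passed 2-fold changed with the scaling, the background method, the probe summary, the GC trend and the rows used. It fell short of 2-fold under 9 of 19 alternative settings and was above 0 under all 19. The lowest value, 0.47, came with normexp, another background correction, after which 50 was added to every signal. miR-26a-5p lay below 0 under 4 of the 19 and was at 1.08 without scaling. The rank of miR-26b-5p was 10 with normexp and its offset, 9 with the authors' deposited values and 8 with the GC trend removed. With no filter on dim probes it was 112 of 932 miRNAs, and under the other settings from 3 to 6.

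**Figure D2:**
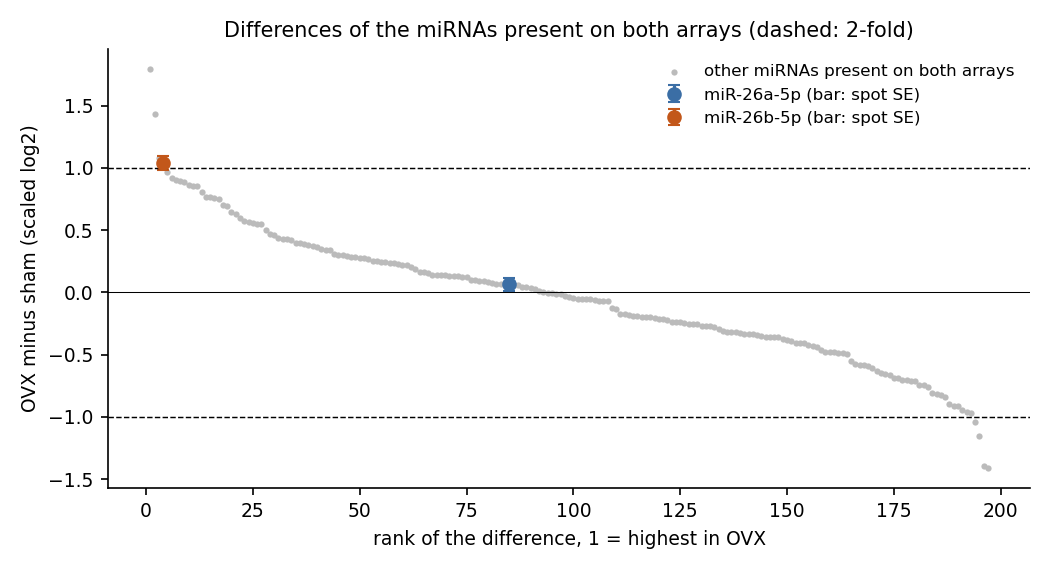
Differences (scaled log2, OVX minus sham) of the 197 miRNAs present on both arrays, ordered from the highest; dashed lines mark 2-fold, and bars on the members are spot SEs. miR-26b-5p stands at rank 4 with 1.04 and miR-26a-5p at rank 85 with 0.06.

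**Figure D3:**
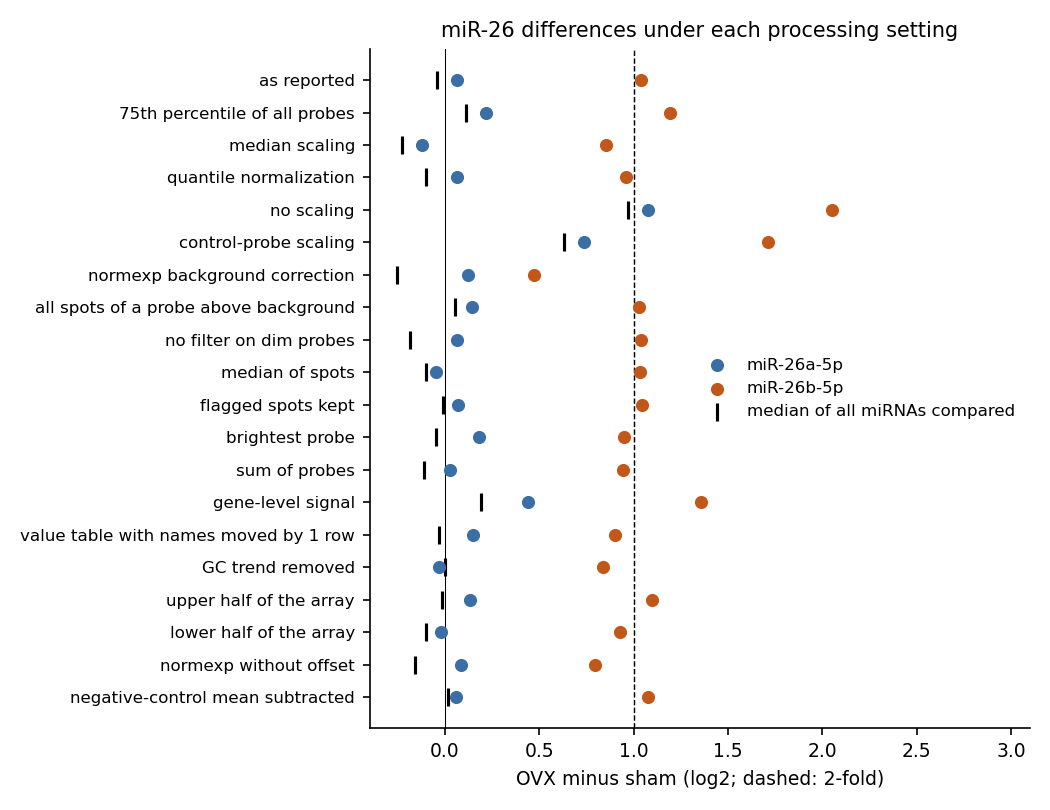
Difference of each member (log2, OVX minus sham) under the reported setting and 19 alternatives, with the median of all miRNAs compared as a black tick. miR-26b-5p lies to the right of miR-26a-5p in every line, with the narrowest gap, 0.35, under normexp background correction. Settings that only rescale an array by a constant leave the gap unchanged by construction.

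The contrast between the paralogs does not depend on how the arrays were scaled by a constant. Each difference compares a probe with itself, so a constant factor of a probe or of an array cancels in the gap between them. An amount added to every signal, such as the normexp offset, does not cancel. The difference of miR-26b-5p exceeded that of miR-26a-5p by 0.98 (spot SE 0.08), or 1.97-fold. The 4 pairings of a miR-26b-5p probe with a miR-26a-5p probe gave gaps from 0.77 to 1.18. The probes of each member differ by 1 base in length and otherwise share their sequence, so the pairings are not independent. Probes of the same miRNA differed with a pooled SD of 0.11 over the 139 miRNAs with more than 1 probe. That error leaves out anything common to an array or to the probes of a miRNA. The gap was above 0 under all 19 alternatives, from 0.35 to 1.08. Those that only change a constant factor between arrays could not move it, so they add nothing to this count. It was 0.35 with normexp and its offset of 50, and 0.71 with normexp and no offset, an alternative added after seeing the data. With the offset, the miR-26b-5p signals in sham became 104.5 and 134.8. Without it they were 54.5 and 84.8, against 36.4 and 67.0 as processed by the scanner software, so the offset was not the only change.

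Base composition and place on the array moved with these values. Across the 197 miRNAs, the difference fell as probe G and C content rose (Spearman's rho -0.32, points sharing the same arrays), and the miR-26b-5p probes were poorer in G and C. With a linear trend on that content removed, miR-26b-5p was at 0.84, miR-26a-5p at -0.03 and the gap at 0.87. From the upper rows of the array alone (split at its middle row) the gap was 0.97, with miR-26b-5p past 2-fold and miR-26a-5p at 0.13. From the lower rows it was 0.95, with miR-26b-5p at 0.93 and miR-26a-5p at -0.02.

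The authors' deposited table of log2 values gives the same order once its names are set right. As printed, its row names did not go with the array signals (Spearman's rho 0.02 for sham and 0.04 for OVX, over 1881 miRNAs); with each value given the name printed 1 row below it, rho was 0.996 and 0.994. With names moved in this way, the authors' value for miR-26a-5p was 7.01 in sham and 7.16 in OVX, 0.15 higher. For miR-26b-5p the authors' values were 5.28 and 6.18, 0.90 higher. Read under the printed names, miR-26a-5p would appear undetected, at the floor of the table on both arrays, and miR-26b-5p would appear lower in OVX.

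The opposite strands of the 3 hairpins were not measurable. miR-26a-1-3p and miR-26a-2-3p, whose sequences would separate the miR-26a loci, and miR-26b-3p had 8 probes among them, and 0 spots of any were well above background on either array. Their mean signals ran from -2.76 to 2.78 in sham and from -2.53 to 1.31 in OVX, within the negative control mean plus 3 SD (10.4 and 9.95). The data therefore do not say which miR-26a locus gave the miR-26a-5p signal.

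Gaps between miRNAs that share a seed give a scale for the contrast. Of the 197 miRNAs, 162 matched a mature RefSeq entry by name in the part of the table searched. Of these, 41 formed 53 pairs with the same seed, over 14 seeds. Pairs with an unmatched miRNA are left out, so the count, median and ranks cover the matched miRNAs only. The miR-30 members miR-30b-5p and miR-30d-5p, for example, are in no pair. The gap between the 2 differences of a pair had a median of 0.35, and that of miR-26a-5p and miR-26b-5p was the second widest. The widest was between miR-130b-3p (-0.24) and miR-721 (0.76), and next after miR-26 came miR-130b-3p and miR-301a-3p (0.89). In the let-7 family the widest gap, 0.78, was between let-7b-5p (-0.22) and let-7f-5p (0.56). Pairs share members and the same 2 arrays, so this is a description. With normexp and its offset the miR-26 gap ranked 17 of 53, and with the values of the authors' table it ranked 7.

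**Figure D4:**
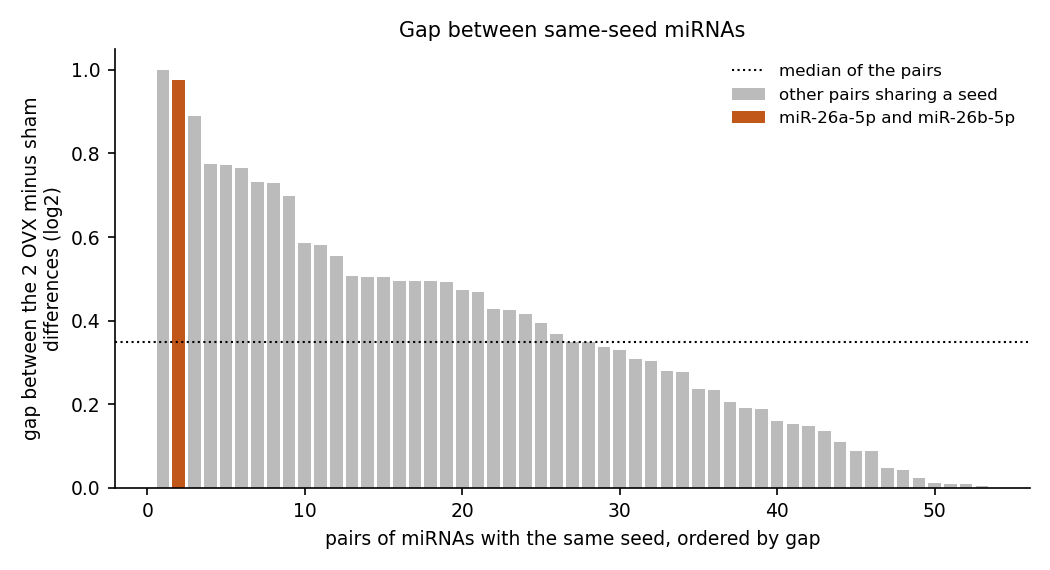
Gap between the OVX minus sham differences (log2) of 53 same-seed pairs, ordered from the widest, with their median (0.35) dotted. Pairs are of miRNAs present on both arrays and matched by name to a RefSeq entry. Same-seed miRNAs without a match are left out. The miR-26 pair (0.98) stands at rank 2.

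The miRNAs whose difference was nearest to each member's, over the 2 samples, were looked up by the distance between differences. Nearest to miR-26b-5p were miR-142a-5p (1.08, distance 0.04), a blood-cell miRNA, miR-144-5p (0.97, 1 probe), made in the red-cell lineage, miR-574-3p (0.92), miR-21a-5p (0.90), often raised in inflamed tissue, and miR-29c-3p (0.90), of a family that targets collagens. Each of these 5 was above 0 under every setting tried except miR-144-5p with Agilent's gene-level signal (-1.29). Their sizes depended on the background method. With normexp and its offset they ran from 0.15 (miR-29c-3p) to 0.75 (miR-21a-5p), with miR-26b-5p at 0.47. Nearest to miR-26a-5p, at distances up to 0.0061, were miR-30b-5p, let-7a-5p, miR-6929-3p, miR-1894-3p and miR-185-5p, with differences from 0.06 to 0.07. All 5 were below 0 with median scaling, as miR-26a-5p was (-0.12). That scaling shifts every miRNA by the same constant, so the shared sign follows from their nearness.

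miR-26 belongs to the miRNAs reported to be repressed by MYC, a driver of cell growth, together with let-7, miR-29 and miR-30 members. Of 25 others listed, 20 were present on both arrays: 14 lay above 0 and 6 below, while 93 of all 197 miRNAs (47.2%) lay above 0. These counts follow the scaling: 10 of the 20 and 32.0% of the 197 were above 0 with median scaling. All 20 were above 0 without scaling and scaled on the control probes, as were 98.0% and 88.3% of the 197. Of the 20, 1 was at least 2-fold higher, beside 2.03% of all 197, a share too near to read anything from. It was miR-150-5p (1.43, spot SE 0.14, 1 probe), a lymphocyte miRNA. The next was miR-29c-3p (0.90), and the lowest were miR-30d-5p (-0.27) and miR-22-3p (-0.25), which were above 0 without scaling (0.74 and 0.77). The list's median was 0.19, against -0.04 for all 197. miR-26b-5p thus exceeded 19 of the 20 and miR-26a-5p lay below the list's median. miR-146a-5p was present on the OVX array only, at least 2.07-fold higher, as was miR-195a-5p, at least 1.23-fold; for each the OVX level was set against the higher of the probe's own sham level and the lowest level counted as present in sham, with the reported scaling. miR-497a-5p was present on the OVX array only, with no fold given, and let-7e-5p and miR-98-5p were not well above background on either array. Of all miRNAs, 299 were present on the OVX array, 202 on the sham array and 197 on both. Presence on the OVX array only was thus common.

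**Figure D5:**
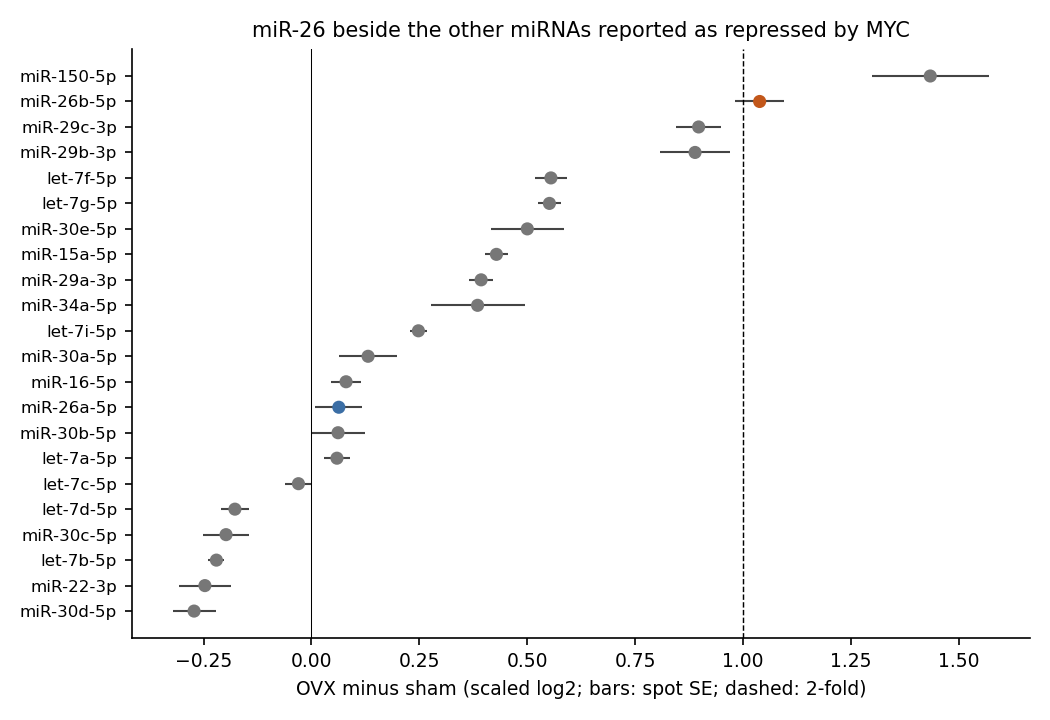
Differences (scaled log2, OVX minus sham) of the members and the 20 other miRNAs reported as repressed by MYC that were present on both arrays; bars are spot SEs and the dashed line is 2-fold. miR-26b-5p (1.04) stands between miR-150-5p (1.43) and miR-29c-3p (0.90), and miR-26a-5p (0.06) below the list's median of 0.19.

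Other miRNAs reported to act on the target Ezh2 were hardly measured. miR-101b-3p, miR-138-5p and miR-214-3p were not well above background on either array. miR-101a-3p was present on the OVX array only, at a signal of 23.7 against 4.72 in sham, with no fold given. Among all miRNAs, 299 were present on the OVX array and 197 on both. Of 9 other miRNAs reported to favour osteoblasts, 6 were present on both arrays, with 4 above 0 and 2 below, beside the 93 of 197. They were 3 and 3 with median scaling, 6 and 0 without scaling, and 5 and 1 scaled on the control probes. They ran from miR-2861 (-0.71, 1 probe), which was above 0 without scaling (0.30), to miR-29c-3p (0.90), and their median was 0.26. The 3 miR-29 members stand in both lists.

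Markers of blood cells were present in these femurs, and some were higher in OVX as miR-26b-5p was. All 4 red-cell miRNAs were present on both arrays, with a summed scaled level (linear) of 25.3 in sham and 30.4 in OVX and differences from -0.71 (miR-486a-5p) to 0.97. Such sums add levels of different probes and follow the scaling. Most of this one was miR-451a (log2 level 4.51 in sham and 4.78 in OVX). Its difference was 0.28, and 0.09 with median scaling. The 3 markers listed as myeloid summed to 31.7 and 23.4. Of these, miR-142a-5p (1.08) and miR-142a-3p (0.63) were above 0. They are the 2 arms of 1 hairpin and mark blood cells in general, not myeloid cells alone. The lower sum in OVX came from the third, miR-223-3p (-0.63), which was above 0 without scaling (0.38) and scaled on the control probes (0.04). Of 4 lymphocyte markers 3 were present on both, summing to 1.39 and 2.09, with miR-150-5p at 1.43 and miR-181a-5p at -0.21. Without scaling miR-486a-5p and miR-181a-5p were above 0 (0.31 and 0.80). Their part in the miR-26b-5p difference was not tested. Both cartilage markers were present on both arrays, miR-140-3p at -0.49 and miR-140-5p at 0.17. Without scaling miR-140-3p was above 0 (0.52), and with median scaling miR-140-5p was below 0 (-0.02). Of 2 endothelial markers, miR-126a-3p was present on both arrays (0.77, and 0.03 with normexp and its offset) and miR-126a-5p on neither. Of 4 muscle markers, miR-133a-3p and miR-133b-3p were present on the sham array only, and miR-1a-3p and miR-206-3p on neither. The first 2 were higher in sham by at least 2.04-fold and 2.80-fold, bounds that hold for the reported scaling alone: the unscaled signals were 19.5 against 10.8 and 26.8 against 16.3. On the sham array 202 miRNAs were present, 197 of them also on the OVX array. The liver marker miR-122-5p and the nervous tissue markers miR-124-3p and miR-9-5p were not well above background on either array. The set holds no miRNA that marks bone cells alone.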

How the data were processed

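The scanner files were made by the authors with Agilent Feature Extraction (10.7.1.1 per the file headers, 11.0.1.1 per the submitters' processing notes) on mm9. The deposited intensity per spot is background-subtracted and not normalized between arrays, per the file headers. The labels name a labelling kit for cRNA, which is not how miRNA arrays are usually labelled. The deposited log2 value table was made by the authors by a method not given in the sources used here.

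Control spots were dropped, as were outlier-flagged spots (2.75% and 2.90% of 56430 miRNA spots on each array); 0 miRNA spots were saturated. On the sham array 202 miRNAs were present and on the OVX array 299. Levels and spot SEs were computed as described in the text with Python 3.11.15 and pandas 2.3.3; normexp used limma 3.58.1. The calculation was tested on simulated data. With 1 sample per group no test was made; precision is limited by there being 1 array for each. Members and lists were chosen with earlier results of these data known. Named miRNAs are the members, their opposite strands, the 5 nearest differences, the extremes or all measured members of the lists, and the cell type markers. The widest same-seed pairs were named after their values were seen. Other scalings, background corrections, probe filters and summaries (17 settings), and 2 settings added after seeing the data, were compared.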

Additional observations from a re-analysis of the deposited data

How the results depend on the processing

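A value counts as moved when it shifts by more than the pooled SD between probes, 0.11 (for the gap between the members, that SD for both), and a count when it changes by over 1.5 times. The values are given in the order miR-26a-5p, miR-26b-5p, median of the list reported as repressed by MYC, and number of miRNAs at least 2-fold higher (0.06, 1.04, 0.19 and 4 as reported). They were 0.22, 1.19, 0.34 and 12 with the 75th percentile of all probes, -0.12, 0.85, 0.0052 and 2 with median scaling, 1.08, 2.05, 1.20 and 97 with unscaled signals, 0.74, 1.71, 0.86 and 43 scaled on the control probes, and 0.44, 1.36, 0.43 and 15 with the gene-level signal. The first 4 of these shift every miRNA by a constant: the median of all was 0.11, -0.23, 0.97 and 0.63. Relative to that median miR-26a-5p stayed at 0.10 and miR-26b-5p at 1.08.

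With normexp and its offset of 50, miR-26b-5p was at 0.47, the gap at 0.35 and the count at 0; without the offset, a setting added after seeing the data, they were 0.80, 0.71 and 2. With the brightest probe miR-26a-5p was at 0.18 and the gap at 0.77. In the value table miR-26b-5p was at 0.90 and the gap at 0.75. With the GC trend removed miR-26b-5p was at 0.84 and the count at 2. The count was 7 from the upper rows of the array, and from the lower rows it was 2 with miR-26b-5p at 0.93. With no filter on dim probes the MYC list was at 0.35 and the count at 118, of 932 miRNAs. miR-26b-5p was also short of 2-fold with quantile normalization (0.96), its brightest probe (0.95) and the sum of probes (0.94). miR-26a-5p was also below 0 with the median of spots (-0.05), the GC trend removed (-0.03) and the lower rows (-0.02). Apart from the constants and the offset, whose effect follows from their construction, the cause was not tested.

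The dimmest miR-26b-5p probe in sham, 36.4, limits the precision of its ratio. No paired analysis was possible because each group holds 1 sample.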

Other observations

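All 4 miR-26 probes were dimmer in the upper rows of the array than in the lower rows, on both arrays. For the 19-base miR-26b-5p probe the mean signals were 31.4 (7 spots) and 40.7 (8 spots) in sham, and 147.7 (6 spots) and 170.2 (8 spots) in OVX. For the 16-base miR-26a-5p probe they were 218.7 (6 spots) and 254.0 (9 spots) in sham, and 518.9 (4 spots) and 561.1 (9 spots) in OVX.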
